A study of Mus musculus with 9 samples.

Results

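Mitochondrial ribosomal proteins are encoded in the nucleus, translated in the cytosol and imported, and here their genes were followed through cisplatin injury of the mouse kidney. The genes were chosen by name: every mouse symbol made of Mrps or Mrpl, a number and at most 1 further letter. This rule found 78 genes, 29 with an Mrps and 49 with an Mrpl symbol, of 17963 genes in the deposited table. Gene expression was measured by RNA sequencing of kidney cortex in 9 libraries, 3 per group, on day 4, all from mice labelled WT. One group, called YSJZD here, received cisplatin by intraperitoneal injection and YSJZD by the intragastric route. The cisplatin group received the same injection with pure water in place of YSJZD, and the control group had saline injected and pure water given. Cisplatin is a platinum drug that damages kidney tubules, and the comparisons ask what it does to the kidney and what YSJZD changes. The labels do not say that every library is a different mouse, so p-values measure the spread between these libraries, part of which may be technical. In bulk tissue, fewer cells of a type and less RNA per cell cannot be told apart.

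The mitochondrial ribosome, or mitoribosome, makes the few proteins encoded by mitochondrial DNA, all of them parts of the respiratory chain and ATP synthase. Its small subunit decodes the messenger RNA and its large subunit forms the peptide bonds. Some of its proteins have bacterial homologs and others were added in the mitochondrial lineage. Proximal tubule cells of the kidney cortex are rich in mitochondria and rely on respiration to power reabsorption.

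Promoter sequence is shown for 5 genes on which the results turn: 3 that rose with cisplatin (Mrpl33, Mrpl52 and Mrps18b) and 2 of those that fell furthest (Mrps22 and Mrpl44). Each stretch runs from 100 bases before the annotated start to 50 bases from the start onward, 5′ to 3′ on the gene's strand, in RefSeq's GRCm38.p6. Capitals mark letters that match 1 of 5 searched motifs, on either strand: CCGGAAG (the core bound by ETS family factors such as GABP), GCATGCGC (the core of the NRF1 motif), the longer NRF1 motif around that core, the YY1 motif and CACGTG (an E-box, bound by MYC and related factors).
Mrpl33 (chr5:31613851-31614000, plus strand): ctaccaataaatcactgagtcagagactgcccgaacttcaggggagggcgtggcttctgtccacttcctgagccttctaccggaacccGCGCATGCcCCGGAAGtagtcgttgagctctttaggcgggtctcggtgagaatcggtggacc
Mrpl52 (chr14:54426809-54426958, plus strand): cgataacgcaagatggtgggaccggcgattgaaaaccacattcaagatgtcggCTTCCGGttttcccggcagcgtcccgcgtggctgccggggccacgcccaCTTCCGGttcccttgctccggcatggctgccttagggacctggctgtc
Mrps18b (chr17:35916391-35916540, minus strand): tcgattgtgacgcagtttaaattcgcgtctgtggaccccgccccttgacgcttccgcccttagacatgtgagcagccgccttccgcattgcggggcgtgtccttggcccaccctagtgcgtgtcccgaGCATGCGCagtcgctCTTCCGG
Mrps22 (chr9:98601630-98601779, minus strand): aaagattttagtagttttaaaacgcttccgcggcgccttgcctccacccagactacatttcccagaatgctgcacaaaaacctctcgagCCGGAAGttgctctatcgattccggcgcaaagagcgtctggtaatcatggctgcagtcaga
Mrpl44 (chr1:79775918-79776067, plus strand): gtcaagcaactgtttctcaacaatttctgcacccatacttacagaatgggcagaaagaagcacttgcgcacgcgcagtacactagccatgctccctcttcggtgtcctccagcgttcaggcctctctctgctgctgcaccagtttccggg
The Mrpl33, Mrpl52, Mrps18b and Mrps22 stretches each held the ETS core, and Mrpl33 and Mrps18b also held the NRF1 core. None of the searched letters stands in the Mrpl44 stretch.

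Length-normalised levels differed widely among the 78 genes. On the authors' FPKM scale, with transcripts summed per gene, the gene means ran from 4.30 to 225 in YSJZD libraries (median 46.3), from 4.10 to 218 in cisplatin libraries (median 39.9) and from 3.83 to 233 in control libraries (median 47.8). The 3 most abundant genes in control were Mrps21, Mrpl12 and Mrpl20. Mrps21, the homolog of bacterial S21, averaged 225 ± 33.4 FPKM in YSJZD, 196 ± 38.5 in cisplatin and 233 ± 15.2 in control libraries (SD, n = 3 each). Mrpl12, the L7/L12 homolog of the stalk that contacts translation factors, averaged 167 ± 15.8 FPKM in YSJZD, 115 ± 33.0 in cisplatin and 186 ± 25.0 in control libraries (SD, n = 3 each). Mrpl20, a large subunit protein with a bacterial homolog, averaged 131 ± 10.6 FPKM in YSJZD, 119 ± 14.3 in cisplatin and 150 ± 10.3 in control libraries (SD, n = 3 each). The mean ± SD ranges of the 3 genes in control did not overlap, although those of Mrpl12 and Mrpl20 nearly met. In cisplatin libraries Mrpl52 had the highest mean of the 78, at 218 ± 13.5 FPKM, against 83.6 ± 7.93 FPKM in control libraries. That rank was not separate from Mrpl33 (203 ± 47.8 FPKM in cisplatin libraries) and Mrps21. In cisplatin library 1 they stood at 256.65 and 231.93 FPKM, against 231.86 for Mrpl52. The 3 least abundant genes in control were Mrpl19, Mrps25 and Mrpl35, at 3.83 ± 0.167, 7.90 ± 0.548 and 9.58 ± 0.831 FPKM (SD, n = 3). In YSJZD libraries they stood at 4.30 ± 0.654, 10.1 ± 0.261 and 9.72 ± 0.650 FPKM, and in cisplatin libraries at 4.10 ± 0.135, 9.34 ± 0.624 and 10.8 ± 0.640 FPKM. The rank of Mrpl35 in control was not separate from Mrpl1, at 9.76 ± 1.05 FPKM. Mrpl1 had lower means than Mrps25 and Mrpl35 in YSJZD (8.57 FPKM) and cisplatin libraries (6.97 FPKM). FPKM is scaled to the library total and not corrected for the make-up of the library, so all comparisons below use CPM, each gene's share of a library's counts, scaled by the trimmed mean of M-values (TMM).

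Libraries held 15029274 to 16690471 counts, and all 78 genes passed the filter on low counts. The tissue label held: the 12 proximal tubule markers had counts in every library. Their summed level, 11 of the 12 falling with cisplatin, was 17630 to 36820 CPM in YSJZD, 4447 to 7066 CPM in cisplatin and 69720 to 90070 CPM in control libraries. The 6 macrophage markers, of which 5 rose with cisplatin, summed to 382 to 716 CPM in YSJZD, 1028 to 2416 CPM in cisplatin and 87.9 to 122 CPM in control libraries. The 4 tubular injury markers summed to 664 to 1951 CPM in YSJZD, 3699 to 6568 CPM in cisplatin and 12.02 to 14.97 CPM in control libraries. The part of this shift in cell markers in the results below was not tested.

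Mitoribosomal protein genes fell as a broad group in cisplatin kidneys, with 2 clear exceptions and 2 weaker ones. Of the 78 genes, 46 fell and 4 rose with cisplatin against control, and 28 were not called (edgeR's quasi-likelihood test, Benjamini-Hochberg adjusted p under 0.05 over 13954 genes). Over all genes tested, 54.6% were called, 28.6% higher and 26.0% lower. The median log2 fold change of the 78 genes was -0.48, with quartiles of -0.70 and -0.18, against a median of 0.04 over all genes. Most changes were moderate: 5 genes fell at least 2-fold and 2 rose at least 2-fold, where 14.4% and 18.6% of all genes did so. All cisplatin libraries lay below all control libraries for 50 genes and above them for 5, where 31.0% and 32.4% of all genes showed no overlap in those directions. With scaling to library totals alone, 24 of the 78 genes fell and 8 rose. Of all genes 7839 were then called in either direction, against 7616 in the main fit. The median of the 78 was -0.23 under that scaling, while that of all genes moved up to 0.27. Leaving out 1 library at a time kept the number that fell between 34 and 49, and the number that rose was 2 without control library 2.

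**Figure D1:**
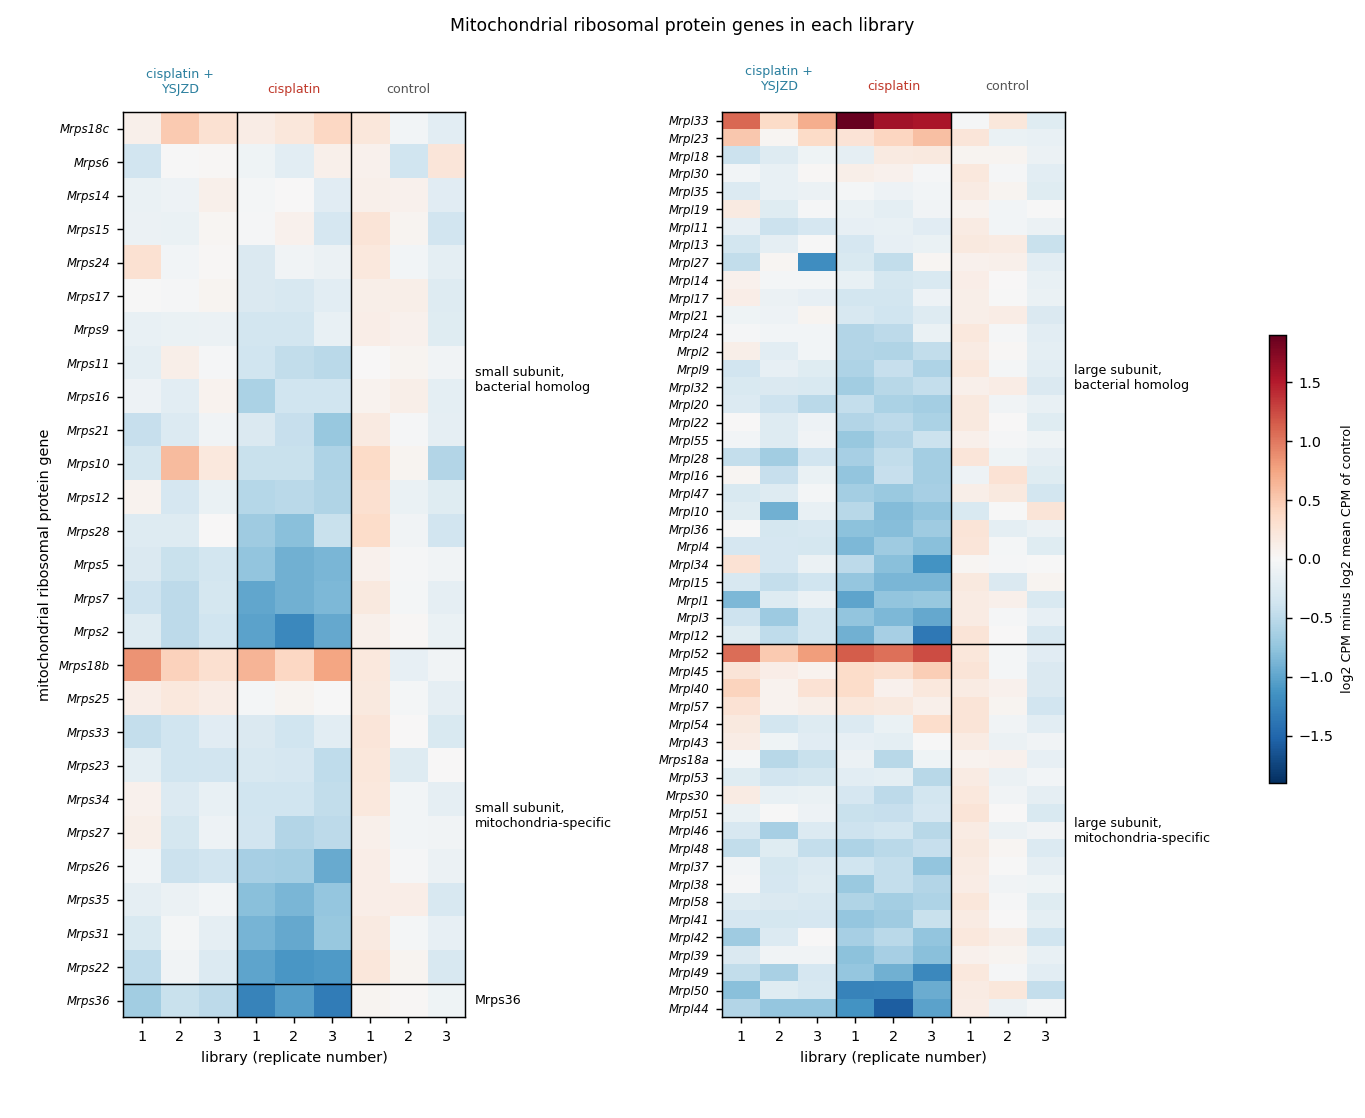
Heat map of the 78 genes in the 9 libraries. Colour gives log2 CPM minus log2 of the control mean CPM (0.5 added to each), genes are ordered within each class by their fold change with cisplatin, and most rows are blue in the cisplatin columns while Mrpl33, Mrpl52 and Mrps18b are red there and in the YSJZD columns.

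The summed level of all 78 genes showed the same order as most single genes. The sums were 3644, 3368 and 3560 CPM in YSJZD libraries, 3010, 2972 and 3019 CPM in cisplatin libraries and 4449, 3984 and 3575 CPM in control libraries. All cisplatin sums were lower than every other sum, and control library 3 lay within the range of the YSJZD libraries. As a share of all gene counts with no other scaling, the genes took 0.375%, 0.342% and 0.378% in YSJZD libraries, 0.332%, 0.325% and 0.301% in cisplatin libraries and 0.380%, 0.364% and 0.342% in control libraries. On that scale the YSJZD and control libraries overlapped and the cisplatin libraries were below both. Control libraries were not alike: library 1 was the highest control library for 65 of the 78 genes and the highest of all 9 for 49.

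**Figure D2:**
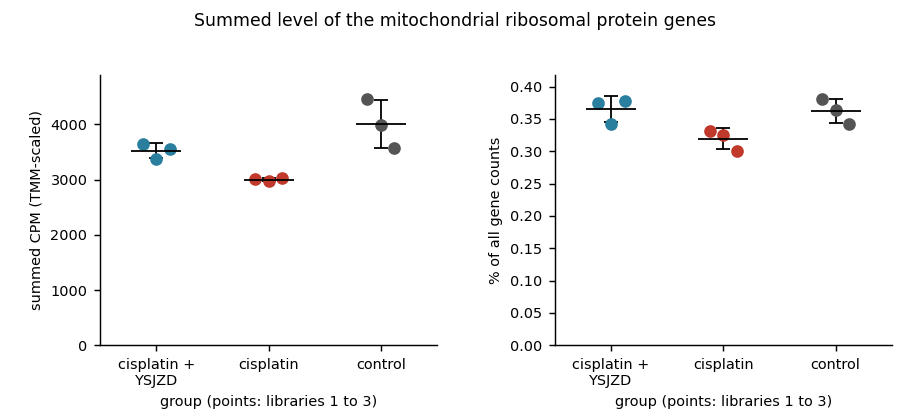
Summed level of the 78 genes in each library, as TMM-scaled CPM on the left and as a percent of all gene counts on the right. Points are libraries, and bars give the mean and SD of 3; the cisplatin libraries lie lowest on both scales.

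Both subunits took part. Of 26 small subunit genes 15 fell and 1 rose (median log2 fold change -0.46), and of 51 large subunit genes 30 fell and 3 rose (median -0.53). Among small subunit genes, 8 of 16 with a bacterial homolog fell and 7 of 10 mitochondria-specific ones did. Among large subunit genes, 17 of 30 with a bacterial homolog and 13 of 21 mitochondria-specific ones fell. The difference between these classes was not tested, and all 4 medians stayed negative with library totals alone (-0.31 to -0.19). Mrps30 and Mrps18a are counted with the large subunit, where their proteins sit despite their names, and Mrps36 with neither. Mrps18a and Mrps18b are counted as mitochondria-specific and Mrps18c with the bacterial homologs, although all 3 are related to bacterial S18.

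**Figure D3:**
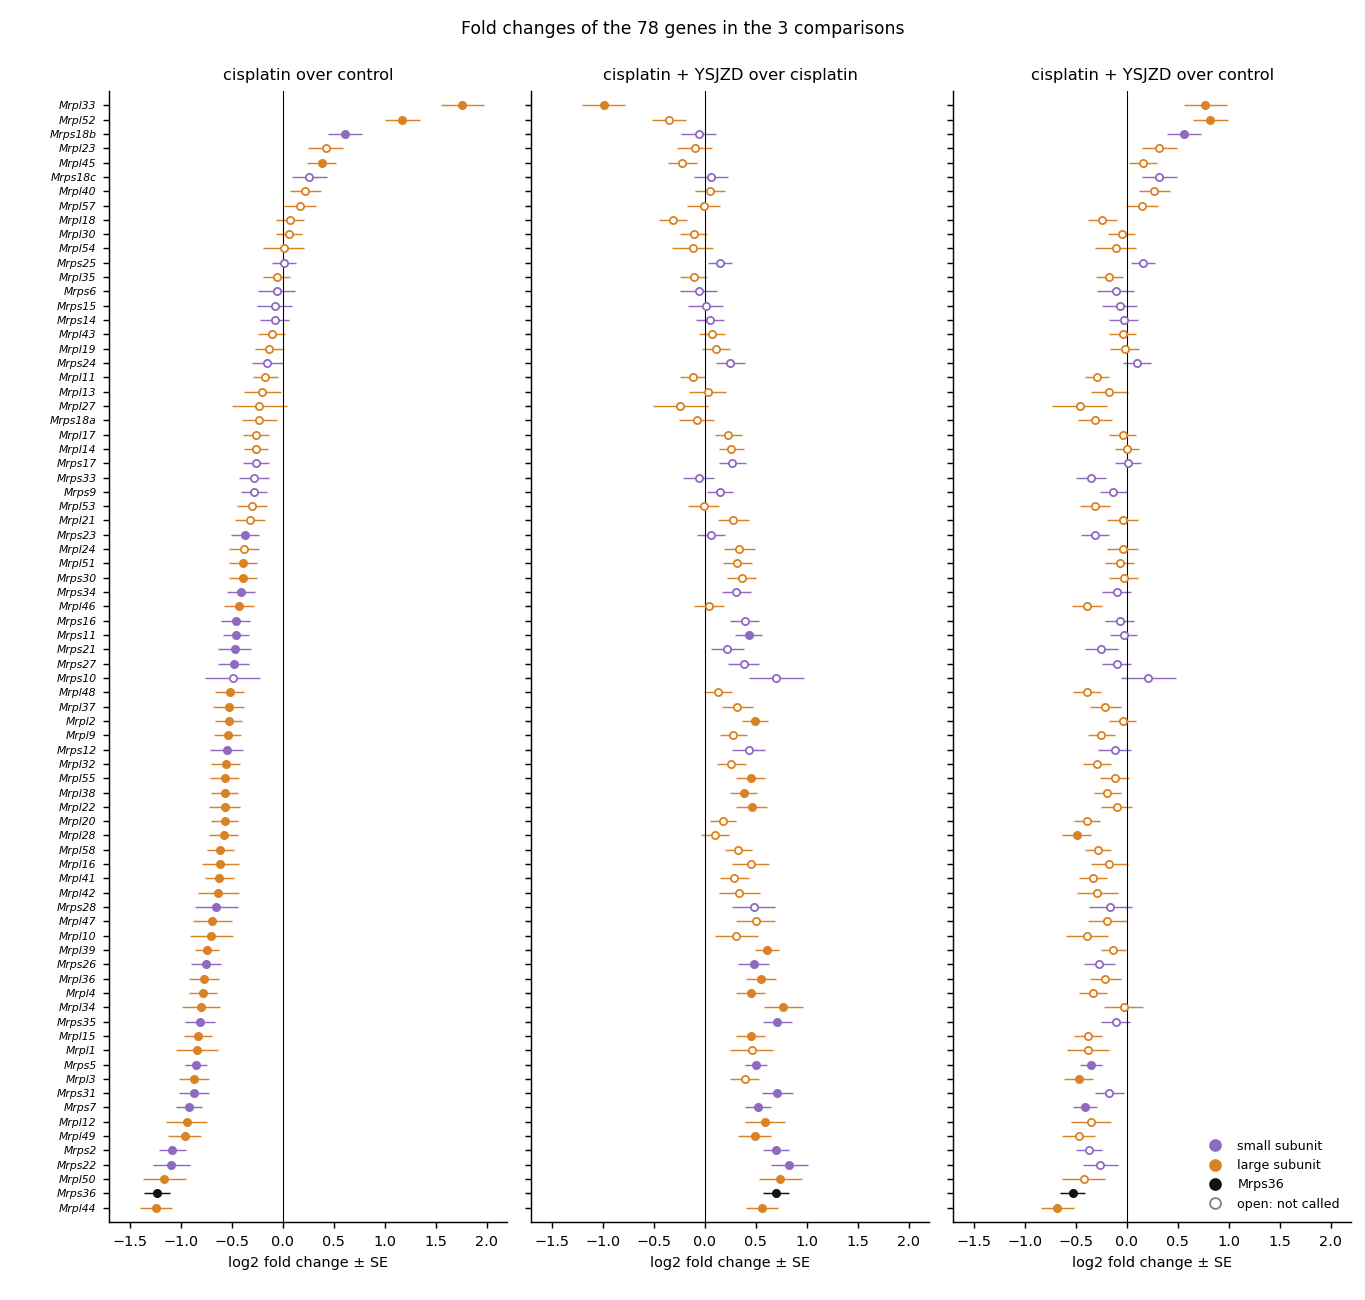
Log2 fold change ± SE of each of the 78 genes in the 3 comparisons, ordered by the change with cisplatin. Filled points passed the adjusted p of 0.05; with cisplatin 46 filled points lie left of 0 and 4 right of it.

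Mrpl33 rose most. It encodes the homolog of bacterial L33, a small protein of the large subunit. Its level was 38.0, 22.7 and 28.6 CPM in YSJZD libraries, 71.4, 53.9 and 52.4 CPM in cisplatin libraries and 17.3, 20.3 and 14.9 CPM in control libraries. The 3 groups did not overlap, with cisplatin highest and control lowest. The log2 fold change with cisplatin over control was 1.76 ± 0.21, adjusted p = 8.43e-05 by edgeR's quasi-likelihood test. On the FPKM scale Mrpl33 averaged 98.8 ± 26.1 in YSJZD, 203 ± 47.8 in cisplatin and 51.2 ± 7.23 in control libraries (SD, n = 3 each).

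Mrpl52, a large subunit protein with no bacterial homolog, rose as well. Its level was 50.1, 33.9 and 41.5 CPM in YSJZD libraries, 53.4, 49.7 and 56.7 CPM in cisplatin libraries and 27.7, 23.2 and 20.3 CPM in control libraries. Control was below every other library, and YSJZD library 1 reached the range of the cisplatin libraries. The log2 fold change with cisplatin was 1.17 ± 0.17, adjusted p = 0.000266 (edgeR). The gene that follows Mrpl52 on the same strand, 1856 bases beyond its end in GENCODE M21, is Mmp14, a membrane-bound matrix metalloproteinase, which rose by 3.50 ± 0.20 on the log2 scale with cisplatin (adjusted p = 1.98e-06). The nearest gene on the other side, Slc7a7 on the opposite strand, fell (-1.60 ± 0.18, adjusted p = 4.57e-05, edgeR). Among the nearest non-overlapping genes of the other members that rose, only Npepps, beside Mrpl45, was called (0.44 ± 0.17, adjusted p = 0.0434). The part of Mmp14 in the Mrpl52 value was not tested.

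Mrps18b is 1 of 3 mammalian paralogs related to bacterial S18. It was measured at 84.5, 63.5 and 57.4 CPM in YSJZD libraries, 73.3, 61.2 and 79.0 CPM in cisplatin libraries and 53.3, 41.9 and 44.4 CPM in control libraries. Both treated groups lay above control and overlapped each other. Its log2 fold change with cisplatin was 0.61 ± 0.17, adjusted p = 0.0126 (edgeR), and 0.54 (adjusted p = 0.0545) without control library 2. The paralog Mrps18a had 79.8, 57.0 and 61.4 CPM in YSJZD, 75.7, 56.8 and 77.5 CPM in cisplatin and 85.6, 87.0 and 73.7 CPM in control libraries. The third paralog, Mrps18c, had 19.7, 26.2 and 22.7 CPM in YSJZD, 20.2, 21.4 and 24.1 CPM in cisplatin and 21.5, 17.6 and 16.0 CPM in control libraries. Neither was called, at -0.23 ± 0.17 for Mrps18a and 0.26 ± 0.17 for Mrps18c, and for both the cisplatin and control libraries overlapped. Mrps18c was called higher with library totals alone, at 0.49 (adjusted p = 0.018) with cisplatin over control and 0.51 (adjusted p = 0.0343) in YSJZD over control.

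Mrpl45, which in mammals helps hold the mitoribosome at the inner membrane, was the fourth gene to pass. Levels of 56.5, 52.1 and 49.9 CPM in YSJZD, 60.8, 58.9 and 65.5 CPM in cisplatin and 56.6, 46.4 and 39.3 CPM in control libraries were recorded. Cisplatin libraries lay above all control libraries by a narrow margin. The log2 fold change of 0.38 ± 0.14, adjusted p = 0.044 (edgeR), was lost when 1 library was left out in 7 of 9 cases: YSJZD library 2 or 3, any cisplatin library, or control library 2 or 3, with values of 0.26 to 0.42.

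**Figure D4:**
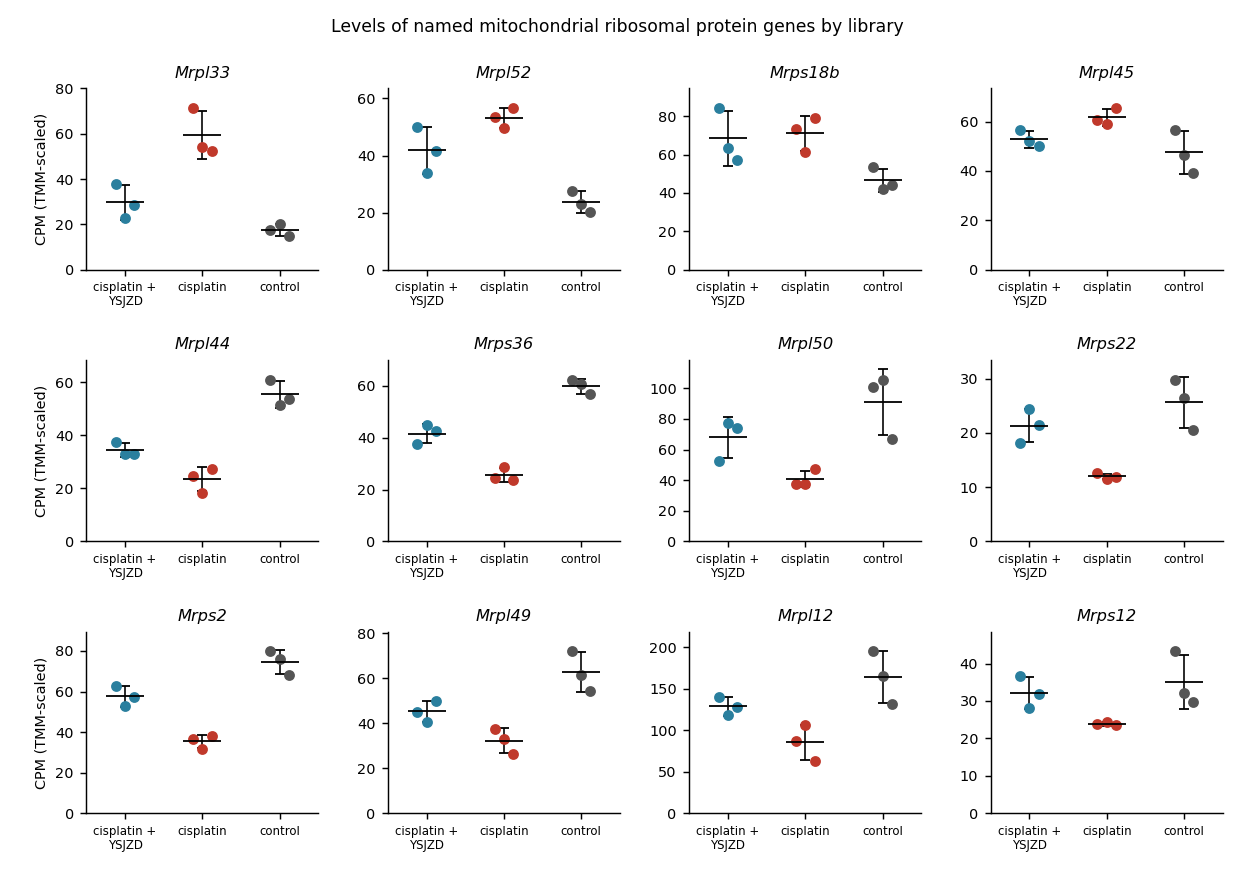
CPM of 12 genes in every library (points), with the mean and SD of 3. In the top row Mrpl33, Mrpl52, Mrps18b and Mrpl45 are higher in cisplatin than in control, and in the other rows the cisplatin libraries lie lowest.

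Mrpl44 fell most. Its protein carries a ribonuclease III-like fold, and variants in the human gene cause an infantile cardiomyopathy. Its level was 37.6, 33.1 and 33.0 CPM in YSJZD libraries, 24.8, 18.3 and 27.1 CPM in cisplatin libraries and 61.0, 51.4 and 53.8 CPM in control libraries. The groups did not overlap, and YSJZD stood between the other two. The log2 fold change with cisplatin was -1.24 ± 0.16, adjusted p = 0.000119 (edgeR). Mrpl50, mitochondria-specific, had 52.6, 77.3 and 74.0 CPM in YSJZD, 37.5, 37.8 and 47.0 CPM in cisplatin and 101, 106 and 66.6 CPM in control libraries, a log2 fold change with cisplatin of -1.16 ± 0.21, adjusted p = 0.000996. Its control library 3 lay within the YSJZD range.

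Other large subunit genes fell by less than 2-fold. Mrpl49, also mitochondria-specific, had 45.0, 40.8 and 50.1 CPM in YSJZD, 37.5, 32.9 and 26.5 CPM in cisplatin and 72.0, 61.7 and 54.4 CPM in control libraries, with no overlap between any groups (-0.96 ± 0.16, adjusted p = 0.00069 for cisplatin, edgeR). Mrpl12 had 140, 118 and 128 CPM in YSJZD, 86.6, 106 and 63.4 CPM in cisplatin and 195, 165 and 132 CPM in control libraries (-0.94 ± 0.20, adjusted p = 0.00282). For Mrpl12 the cisplatin libraries were below all others, and control library 3 was within the YSJZD range. Mrpl3, homolog of the bacterial protein L3 near the peptidyl transferase centre, had 30.5, 24.7 and 31.1 CPM in YSJZD, 23.6, 22.0 and 20.0 CPM in cisplatin and 44.8, 39.3 and 35.9 CPM in control libraries (-0.87 ± 0.15, adjusted p = 0.000618), again with no overlap between groups. Mrpl1, the L1 stalk homolog, had 15.8, 24.4 and 26.7 CPM in YSJZD, 14.2, 17.0 and 17.4 CPM in cisplatin and 32.4, 31.0 and 23.6 CPM in control libraries (-0.84 ± 0.21, adjusted p = 0.00707). The cisplatin and YSJZD libraries of Mrpl1 overlapped.

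Mrpl34, Mrpl36, Mrpl41, Mrpl28 and Mrpl20, further large subunit genes, also fell. Mrpl34 had 53.8, 35.4 and 41.2 CPM in YSJZD, 31.4, 25.3 and 19.8 CPM in cisplatin and 45.3, 43.8 and 43.9 CPM in control libraries (-0.80 ± 0.19, adjusted p = 0.00561 for cisplatin, edgeR). Mrpl36, homolog of bacterial L36, had 38.8, 31.0 and 31.7 CPM in YSJZD, 22.6, 22.1 and 24.3 CPM in cisplatin and 46.8, 34.5 and 36.4 CPM in control libraries (-0.77 ± 0.15, adjusted p = 0.00186). In both genes the cisplatin libraries were lowest and YSJZD overlapped control. Mrpl41 had 32.9, 32.2 and 32.6 CPM in YSJZD, 24.3, 25.4 and 30.5 CPM in cisplatin and 45.5, 41.2 and 36.0 CPM in control libraries (-0.62 ± 0.14, adjusted p = 0.00337). Mrpl28 had 54.0, 46.8 and 57.7 CPM in YSJZD, 47.7, 53.2 and 47.3 CPM in cisplatin and 86.5, 69.9 and 65.7 CPM in control libraries (-0.58 ± 0.14, adjusted p = 0.00535), with YSJZD overlapping cisplatin rather than control. Mrpl20 had 70.9, 64.5 and 59.5 CPM in YSJZD, 61.7, 55.9 and 54.4 CPM in cisplatin and 97.0, 80.9 and 77.2 CPM in control libraries (-0.57 ± 0.13, adjusted p = 0.00425), and YSJZD again overlapped cisplatin. The call of Mrpl28 was lost with scaling to library totals alone (-0.34, adjusted p = 0.0562).

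In the small subunit, Mrps22 and Mrps2 fell at least 2-fold. Mrps22 is mitochondria-specific, and variants in the human gene cause combined respiratory chain deficiency. It had 18.2, 24.4 and 21.4 CPM in YSJZD, 12.6, 11.6 and 11.9 CPM in cisplatin and 29.8, 26.5 and 20.6 CPM in control libraries, a log2 fold change of -1.09 ± 0.18, adjusted p = 0.000501 with cisplatin (edgeR). Mrps2, the S2 homolog, had 62.9, 52.8 and 57.2 CPM in YSJZD, 36.7, 31.6 and 38.0 CPM in cisplatin and 79.7, 76.2 and 68.1 CPM in control libraries (-1.08 ± 0.13, adjusted p = 7.02e-05). For both the cisplatin libraries were the lowest of all, and for Mrps22 the YSJZD libraries overlapped control. Mrps7, the S7 homolog in the head of the subunit, had 66.9, 62.1 and 69.9 CPM in YSJZD, 43.9, 46.6 and 48.5 CPM in cisplatin and 99.8, 85.8 and 78.2 CPM in control libraries (-0.92 ± 0.13, adjusted p = 0.00017). Mrps31 had 23.9, 28.6 and 26.0 CPM in YSJZD, 15.7, 14.7 and 17.7 CPM in cisplatin and 33.2, 28.6 and 26.4 CPM in control libraries (-0.87 ± 0.15, adjusted p = 0.000641). The YSJZD libraries of Mrps7 and Mrps31 lay above all cisplatin libraries.

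Mrps12, the S12 homolog at the decoding centre, had 36.5, 28.1 and 32.0 CPM in YSJZD, 23.8, 24.4 and 23.5 CPM in cisplatin and 43.2, 32.1 and 29.8 CPM in control libraries. The cisplatin libraries were lowest and the other groups overlapped. Its log2 fold change with cisplatin was -0.55 ± 0.16, adjusted p = 0.0163 (edgeR), -0.38 (adjusted p = 0.0699) without control library 1 and -0.31 (adjusted p = 0.114) with library totals alone. Mrps30, whose protein sits in the large subunit, had 48.3, 39.4 and 39.7 CPM in YSJZD, 34.8, 30.5 and 34.0 CPM in cisplatin and 50.0, 41.4 and 38.5 CPM in control libraries (-0.39 ± 0.14, adjusted p = 0.0401). Mrps21 had 61.1, 69.6 and 79.8 CPM in YSJZD, 68.6, 61.1 and 50.5 CPM in cisplatin and 93.9, 82.2 and 73.8 CPM in control libraries (-0.47 ± 0.16, adjusted p = 0.0286). Both calls were lost in several of the fits that left out 1 library. That of Mrps30 was lost without control library 1 or 2, any cisplatin library or YSJZD library 3 (-0.42 to -0.27), and that of Mrps21 without control library 1 or 2 or cisplatin library 2 or 3 (-0.48 to -0.36). With library totals alone neither was called, at -0.15 for Mrps30 and -0.23 for Mrps21.

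Mrps36 carries a ribosomal name, but its protein is now known as a component of the 2-oxoglutarate dehydrogenase complex of the citric acid cycle. It had 37.6, 44.7 and 42.5 CPM in YSJZD libraries, 24.5, 28.7 and 23.6 CPM in cisplatin libraries and 62.4, 60.7 and 56.8 CPM in control libraries. The groups did not overlap. Its log2 fold change with cisplatin was -1.23 ± 0.13, adjusted p = 2.97e-05 (edgeR), close in size to that of Mrpl44.

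Among the 28 genes not called with cisplatin were several with a bacterial homolog. Mrpl11, a protein of the stalk base, had 41.1, 34.2 and 36.4 CPM in YSJZD, 40.9, 41.4 and 39.1 CPM in cisplatin and 50.7, 43.8 and 42.4 CPM in control libraries, a log2 fold change with cisplatin of -0.17 ± 0.12. Mrpl19 had 23.2, 17.3 and 20.1 CPM in YSJZD, 18.7, 18.0 and 19.5 CPM in cisplatin and 21.5, 19.7 and 20.4 CPM in control libraries (-0.13 ± 0.14). Mrpl35 had 31.2, 33.9 and 34.6 CPM in YSJZD, 36.6, 35.1 and 36.1 CPM in cisplatin and 41.9, 38.8 and 31.9 CPM in control libraries (-0.06 ± 0.13). The sign of all 3 turned with library totals alone, to 0.06, 0.10 and 0.17. Mrps25, mitochondria-specific, had 56.4, 59.5 and 57.4 CPM in YSJZD, 50.5, 53.7 and 51.6 CPM in cisplatin and 58.9, 50.2 and 46.0 CPM in control libraries (0.01 ± 0.12). These values do not show that the 4 genes were equal between the groups.

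With YSJZD added to cisplatin, part of the group was higher than with cisplatin alone. Of the 78 genes 22 rose and 1, Mrpl33, fell, and 55 were not called (edgeR's quasi-likelihood test). Over all genes tested 35.4% were called in this comparison, 17.4% higher and 18.0% lower. The median log2 fold change of the 78 genes was 0.30, against -0.01 over all genes. All YSJZD libraries lay above all cisplatin libraries for 43 genes and below them for 3, where 23.7% and 23.6% of all genes showed no overlap in those directions. The number that rose was smaller in some fits that left out 1 library: 12 without YSJZD library 3 and 11 without cisplatin library 2. In those fits fewer of all genes were called too, 3496 and 4017 in either direction, against 4942 with all libraries. The number of the 78 that fell was 2 without YSJZD library 1. Proximal tubule markers were also higher and macrophage markers lower in YSJZD than in cisplatin libraries, as given above, and their part was not tested.

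The largest rises with YSJZD over cisplatin alone were in Mrps22 (0.83 ± 0.18, adjusted p = 0.00551), Mrpl34 (0.77 ± 0.19, adjusted p = 0.0121), Mrpl50 (0.74 ± 0.21, adjusted p = 0.0204) and Mrps31 (0.71 ± 0.15, adjusted p = 0.00488), as log2 fold changes ± SE from edgeR. Mrps2 rose by 0.70 ± 0.13, adjusted p = 0.00244, Mrps36 by 0.70 ± 0.13, adjusted p = 0.00236 and Mrps7 by 0.52 ± 0.13, adjusted p = 0.0102. In the large subunit Mrpl44 rose by 0.56 ± 0.16, adjusted p = 0.02, Mrpl36 by 0.55 ± 0.15, adjusted p = 0.0186, Mrpl12 by 0.59 ± 0.20, adjusted p = 0.0429 and Mrpl49 by 0.49 ± 0.16, adjusted p = 0.0392. For all 11 the YSJZD libraries lay above the cisplatin libraries. Outside the set of named genes, Mrps35 rose about as far as Mrps31 (0.71 ± 0.14, adjusted p = 0.00464, edgeR). Mrpl39 of the large subunit, also outside it, rose by 0.61 ± 0.12, adjusted p = 0.00418. Some calls were lost when 1 library was left out. Mrpl50 lost its call without YSJZD library 2 or 3 or cisplatin library 1 or 2 (0.64 to 0.68), Mrpl44 without YSJZD library 1 or cisplatin library 2 (0.50 and 0.41), and Mrpl36 without YSJZD library 1 or cisplatin library 1 or 2 (0.45 to 0.54). Mrpl12 lost it without any YSJZD library, cisplatin library 1 or 3, or control library 2 (0.41 to 0.66), and Mrpl49 without YSJZD library 1 or 3, cisplatin library 2 or 3, or control library 2 (0.36 to 0.50).

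Of the 4 genes that had risen with cisplatin, 1 was called in YSJZD relative to cisplatin alone. Mrpl33 fell, with a log2 fold change of -0.99 ± 0.21, adjusted p = 0.00517 (edgeR). Mrpl52 was not called at -0.35 ± 0.17, adjusted p = 0.129, although it was without YSJZD library 1 (-0.50, adjusted p = 0.043). Mrpl45 was not called at -0.22 ± 0.14, adjusted p = 0.245. Mrps18b stood at -0.06 ± 0.17, adjusted p = 0.825, with YSJZD and cisplatin libraries overlapping. Whether the change of Mrpl33 differs from that of Mrps18b was not tested.

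Against control, few of the genes were called in the YSJZD libraries. Of the 78 genes 3 rose, 6 fell and 69 were not called (edgeR's quasi-likelihood test), where 19.3% of all genes were called, 9.93% higher and 9.37% lower. The median log2 fold change of the 78 genes was -0.17, against 0.01 over all genes. With library totals alone it turned to 0.03 while the median of all genes moved to 0.20, with 6 genes called higher and 1 lower. All YSJZD libraries lay above all control libraries for 3 genes and below them for 17, where 20.8% and 19.5% of all genes showed no overlap in those directions. The count that fell was 1 without YSJZD library 3, 2 without YSJZD library 1 or 2 or control library 2, 3 without cisplatin library 2 and 7 without cisplatin library 3. Without control library 1 none fell (0 by edgeR's test, 10 by DESeq2 with all libraries), and 1 rose; 1 rose also without YSJZD library 1 or control library 3. At an unadjusted p under 0.05 (edgeR), 19 of the 78 passed with all libraries, as did 4584 of the 13954 genes tested.

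The 3 genes that rose in YSJZD over control were Mrpl52 (0.82 ± 0.17, adjusted p = 0.00862), Mrpl33 (0.77 ± 0.21, adjusted p = 0.0306) and Mrps18b (0.56 ± 0.17, adjusted p = 0.0486) by edgeR. Mrpl33 was no longer called without YSJZD library 1 or 3 or control library 1 or 3 (0.55 to 0.80). Mrps18b lost its call without YSJZD library 1 or 2, cisplatin library 1 or any control library (0.38 to 0.67). The genes that fell included Mrpl44 (-0.68 ± 0.16, adjusted p = 0.014), Mrps36 (-0.53 ± 0.12, adjusted p = 0.0151), Mrpl28 (-0.49 ± 0.14, adjusted p = 0.036), Mrpl3 (-0.47 ± 0.14, adjusted p = 0.0441) and Mrps7 (-0.41 ± 0.12, adjusted p = 0.0459). Mrpl44 lost its call without YSJZD library 3 or control library 1 (-0.64 and -0.60), and Mrps36 without control library 1 or 2 (-0.50 and -0.52). Mrpl28 lost its call without any YSJZD library or control library 1 or 2 (-0.55 to -0.36). Mrpl3 lost it without any YSJZD or control library or cisplatin library 2 (-0.55 to -0.37), and Mrps7 without any YSJZD library, cisplatin library 1 or 2, or control library 1 or 2 (-0.44 to -0.31). With library totals alone Mrpl44 remained called and the other 4 were not. The 3 comparisons share their groups, so their values are given side by side and not as independent results.

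Mitoribosomal subunits with other names were checked alongside. Ptcd3, a pentatricopeptide protein of the small subunit, had 24.3, 39.0 and 35.9 CPM in YSJZD, 13.9, 17.0 and 13.5 CPM in cisplatin and 44.8, 48.8 and 45.1 CPM in control libraries, a fall with cisplatin of -1.64 ± 0.18, adjusted p = 5.14e-05 (edgeR). Dap3, a GTP-binding small subunit protein, had 58.7, 64.2 and 59.3 CPM in YSJZD, 45.5, 51.8 and 53.7 CPM in cisplatin and 86.1, 87.5 and 82.6 CPM in control libraries (-0.76 ± 0.11, adjusted p = 0.00029). Aurkaip1 fell too (-0.41 ± 0.14, adjusted p = 0.0253). Chchd1, a small subunit protein with a twin cysteine motif, rose: it had 19.6, 16.6 and 18.6 CPM in YSJZD, 27.0, 30.5 and 25.3 CPM in cisplatin and 22.6, 16.1 and 12.9 CPM in control libraries (0.68 ± 0.20, adjusted p = 0.0151). Gadd45gip1 was not called (-0.38 ± 0.17, adjusted p = 0.0913). With YSJZD over cisplatin alone Ptcd3 rose by 1.16 ± 0.18, adjusted p = 0.00125 and Chchd1 fell, at -0.60 ± 0.20, adjusted p = 0.0403, while Dap3, Aurkaip1 and Gadd45gip1 were not called.

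Other lists of mitochondrial genes also had negative medians with cisplatin. Of 15 genes listed as translation factors 14 fell (median log2 fold change -0.94), among them Gfm1, an elongation factor G, at -2.04 ± 0.16, adjusted p = 5.82e-06 and Tufm, the elongation factor Tu, at -1.67 ± 0.11, adjusted p = 3.15e-06 (edgeR). That list also holds Lrpprc, Slirp, Oxa1l and Mtfmt, which are not translation factors in the strict sense. Of 20 genes for mitochondrial aminoacyl-tRNA synthesis 17 fell (median -0.86), with Gatb, of the glutamyl-tRNA amidotransferase, at -2.32 ± 0.15, adjusted p = 2.56e-06. Of 26 assembly factor genes 18 fell and 2 rose (median -0.70), with Fastkd2 at -1.66 ± 0.15, adjusted p = 1.37e-05. Of 10 genes for the upkeep and transcription of mitochondrial DNA 6 fell (median -0.69), including Polrmt, the mitochondrial RNA polymerase, at -1.04 ± 0.12, adjusted p = 7.21e-05. Of 75 nuclear respiratory chain and ATP synthase genes 59 fell (median -0.66), with Sdha at -1.75 ± 0.16, adjusted p = 1.37e-05. Of 23 import genes 11 fell and 1 rose (median -0.30). The mitoribosomal median of -0.48 lay between those of the respiratory chain and of import, and no difference between lists was tested. With library totals alone 11 translation factor, 13 aminoacyl-tRNA synthesis, 13 assembly, 5 mitochondrial DNA, 42 respiratory chain and 5 import genes fell, 3 assembly, 1 respiratory chain and 2 import genes rose, and the import median was -0.06. Of all genes 7839 were called under that scaling, in either direction, against 7616 in the main fit.

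Cytosolic ribosomal protein genes moved the other way. Of 78 tested, 73 rose with cisplatin (median 1.04), with Rps12 at 1.73 ± 0.17, adjusted p = 1.98e-05 by edgeR. Their summed level was 20800 to 26621 CPM in YSJZD, 35579 to 39760 CPM in cisplatin and 15931 to 22285 CPM in control libraries. Neither ribosome's sums overlapped between cisplatin and control, and they lay on opposite sides. With YSJZD over cisplatin alone 68 of 78 cytosolic ribosomal genes fell (median -0.65), where 18.0% of all genes fell. Rises were called for 10 of 15 translation factor, 16 of 20 aminoacyl-tRNA synthesis and 29 of 75 respiratory chain genes. The same held for 11 of 26 assembly genes, of which 1 fell, and 7 of 10 genes of mitochondrial DNA upkeep. Over all genes 17.4% rose. Import genes did not follow: 2 of 23 rose (8.7%) and 1 fell (median 0.09). In YSJZD over control 9 of 78 cytosolic ribosomal genes rose (11.5%, where 9.93% of all genes did), or 51 with library totals alone, which also raised the median of all genes. Falls were called for 20 of 75 respiratory chain (26.7%), 5 of 15 translation factor (33.3%), 5 of 20 aminoacyl-tRNA synthesis (25.0%) and 3 of 26 assembly genes (11.5%). Among import genes 2 of 23 fell (8.7%), and over all genes 9.37% fell. The cytosolic, assembly and import shares lay near those of all genes. The counts that fell were, with library totals alone, 10 respiratory chain, 5 translation factor, 3 aminoacyl-tRNA synthesis, 1 assembly and 0 import genes.

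**Figure D5:**
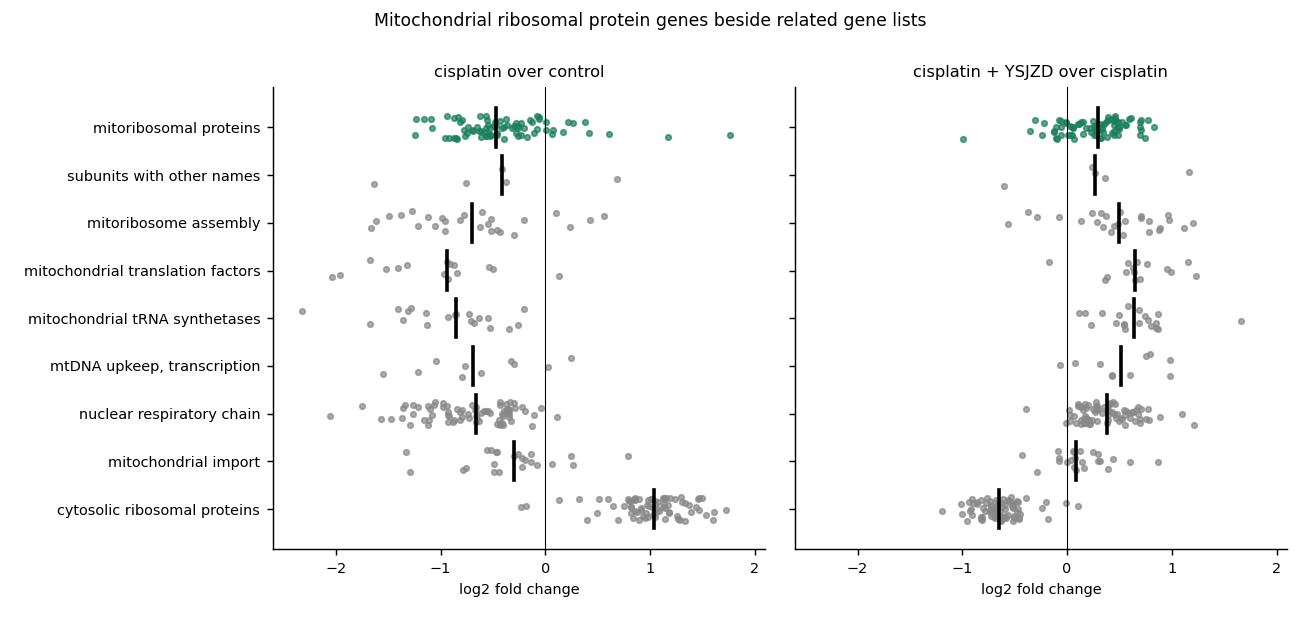
Log2 fold changes of the 78 genes (green) and of 8 related gene lists (grey), with cisplatin over control on the left and YSJZD plus cisplatin over cisplatin on the right. Each point is a gene and each black bar the list's median; the mitochondrial lists have medians below 0 with cisplatin and above 0 with YSJZD, and the cytosolic ribosomal list the reverse.

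Known regulators of nuclear genes for mitochondria split. Esrra, a nuclear receptor that works with the PGC-1 coactivators, had 82.3, 94.7 and 92.8 CPM in YSJZD, 44.8, 47.9 and 34.0 CPM in cisplatin and 179, 148 and 152 CPM in control libraries (-1.92 ± 0.16, adjusted p = 8.12e-06 for cisplatin, edgeR). Ppargc1a, which encodes PGC-1alpha, had 26.9, 39.7 and 37.0 CPM in YSJZD, 14.1, 17.2 and 12.04 CPM in cisplatin and 30.7, 42.5 and 50.4 CPM in control libraries (-1.51 ± 0.22, adjusted p = 0.000293). Both were lowest in cisplatin, and Ppargc1b fell too (-1.15 ± 0.16, adjusted p = 0.000211). Myc rose: it had 50.0, 28.5 and 23.0 CPM in YSJZD, 80.0, 57.3 and 110 CPM in cisplatin and 2.55, 4.52 and 5.43 CPM in control libraries (4.30 ± 0.39, adjusted p = 1.49e-05). Pprc1, the PGC-1-related coactivator, rose by 0.83 ± 0.23, adjusted p = 0.0103. The 2 GABP subunits went apart, with Gabpa at -0.47 ± 0.16, adjusted p = 0.0255 and Gabpb1 at 0.66 ± 0.14, adjusted p = 0.00305. Nrf1 (0.34 ± 0.15, adjusted p = 0.0801) and Yy1 (0.12 ± 0.12, adjusted p = 0.416) were not called. Scaling changed 3 of these 9 calls: with library totals alone Nrf1 (0.58, adjusted p = 0.0145) and Yy1 (0.35, adjusted p = 0.0279) were called higher with cisplatin, and Gabpa was not called (-0.24, adjusted p = 0.242). With YSJZD over cisplatin alone Ppargc1a rose by 1.26 ± 0.22, adjusted p = 0.00228, Esrra by 1.09 ± 0.15, adjusted p = 0.000726 and Ppargc1b by 0.78 ± 0.16, adjusted p = 0.00472, while Myc (-1.28 ± 0.34, adjusted p = 0.0145) and Gabpb1 (-0.55 ± 0.14, adjusted p = 0.0137) fell. Messenger RNA levels do not give the activity of these factors.

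Promoter windows from 250 bases before to 50 bases from the start were at hand for 69 of the 78 genes. The ETS core stood in 26 of them, or 37.7%, against 18.6% of 11096 promoters of tested genes and 9.93% of all 27025 promoters. Of those 26 genes 13 fell and 3 rose with cisplatin (median -0.34), and of the 43 without it 27 fell and 1 rose (median -0.54). The NRF1 core stood in 8 (11.6%, against 5.45% of tested and 3.05% of all genes), and the longer NRF1 motif, which contains that core, in 3 (4.35%, against 2.13% and 1.07%): Mrpl9, Mrpl32 and Mrpl39. Of the 8 genes with the core 5 fell and 2 rose with cisplatin (median -0.55), and of the 61 without it 35 fell and 2 rose (median -0.46). The 3 with the longer motif are among the 5 that fell. The YY1 letters stood in 5 (7.25%, against 2.17% and 0.995%) and the E-box in 5 (7.25%, against 11.3% and 8.09%). A match in these letters is a description of the window and no evidence of binding. Base composition was not matched between these sets.

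Some mitoribosomal genes start close to another gene. In GENCODE M21, 25 of the 78 had a protein-coding neighbour on the opposite strand whose start lay within 500 bases, and 23 overlapped a gene on the opposite strand. The same shares were not computed over all genes. Among the 25 with a close start the member fell and the neighbour fell in 9, the member fell and the neighbour rose in 2, and the remaining pairs had at least 1 gene not called. Over all genes tested, 26.0% fell and 28.6% rose with cisplatin. The pair of Mrps11 and Mrpl46 is counted from both sides. Mrps12 starts 172 bases from Sars2, the mitochondrial seryl-tRNA synthetase, which fell by 0.71 on the log2 scale with cisplatin (edgeR, adjusted p = 0.00963). Mrps11 and Mrpl46 start 412 bases apart and both fell, at -0.46 ± 0.13 and -0.43 ± 0.15. Mrpl49 starts 59 bases from Fau, which encodes a cytosolic ribosomal protein fused to a ubiquitin-like part. Mrpl49 fell (-0.96 ± 0.16) and Fau rose (0.82 ± 0.16, adjusted p = 0.00168). Mrps18b starts 45 bases from Ppp1r10, which was not called (-0.03 ± 0.36). Mrpl33 overlaps Rbks, encoding ribokinase, on the opposite strand, and Rbks fell with cisplatin (-0.84 ± 0.16, adjusted p = 0.00113). These pairs were singled out after their values were seen. Whether the counting used strand is not given in the sources used here, so reads from overlapping stretches of such pairs cannot be told apart.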

How the data were processed

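RNA from 9 kidney cortex libraries was sequenced on a DNBSEQ instrument, per the labels' protocols. Expected counts and FPKM per library were made by the authors and deposited for 58075 transcripts. The submitters' processing notes name RSEM 1.3.1 and DESeq2 1.4.5, and give GRCh38, which is a human genome build. No aligner and no build of the mouse genome is given in the sources used here. Expected counts were summed per gene ID and rounded (16.48% to 19.35% of gene values were not whole within 0.005), giving 17963 genes, of which 17847 matched a symbol in RefSeq's GRCm38.p6 table. FPKM was likewise summed and used for levels between genes only. Counts from all 9 libraries entered 1 fit in edgeR 4.0.16 (R 4.3.3): filterByExpr (4009 genes removed, 13954 tested), TMM factors (0.855 to 1.105), a quasi-likelihood test per comparison, and Benjamini-Hochberg adjustment over all genes tested. The SE of a log2 fold change was derived from that test, as the absolute change divided by the square root of the F statistic. The common biological coefficient of variation was 0.234. The fit was tested on simulated data.

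The genes and lists were chosen with earlier results of these data known. Named genes are the 6 highest and 6 lowest called changes with no overlap for cisplatin over control, 4 and 4 for each other comparison, the 3 highest and 3 lowest by control FPKM, and a fixed set of 15. From the companion lists up to 3 genes with the smallest p could be named, and all regulators. Neighbouring genes were taken from GENCODE M21. Alternatives were DESeq2 1.42.0 and its size factors, library totals alone, 2 other filters, limma-voom (limma 3.58.1), a block for replicate number, only the 6 libraries compared, and leaving out each library.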

Additional observations from a re-analysis of the deposited data

How the results depend on the processing

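With library totals alone, cisplatin over control had 8 of the 78 genes higher, 24 lower and a median of -0.23, and YSJZD over control had 6 higher, 1 lower and a median of 0.03. In cisplatin over control 7839 of all genes were called under it, against 7616 in the main fit. Under that scaling the sign turned for 9 of the 78 genes with cisplatin over control, 3 in YSJZD over cisplatin and 30 in YSJZD over control, none called under either scaling. Among the named genes these were Mrpl11 (0.06), Mrpl19 (0.10) and Mrpl35 (0.17) with cisplatin over control, and for Mrpl19 (0.17), Mrpl34 (0.16), Mrpl35 (0.02), Mrps12 (0.08), Mrps30 (0.17) and Mrps31 (0.03) in YSJZD over control. Mrps25 with cisplatin was -0.01 with DESeq2's size factors and -0.00 with no filter or DESeq2. In YSJZD over control the count lower was 3 with no filter, 10 with DESeq2 and 3 with the replicate block. Same-numbered libraries of different groups did not deviate together (r from -0.20 to 0.09 over 9 pairs, and from -0.20 to 0.24 over 18 pairs of different number). With 3 libraries per group this cannot settle whether the numbers pair the libraries, and the main fit did not pair them. Under the replicate block 4 genes were higher and 45 lower with cisplatin, and 21 and 1 in YSJZD over cisplatin. Among named calls, Mrpl45 with cisplatin was lost with DESeq2's size factors, no filter and only the 6 libraries compared. In YSJZD over cisplatin, Mrpl12 was lost with a filter of 5 CPM, and both it and Mrpl49 with library totals alone and with the 6 libraries. In YSJZD over control, Mrps18b was lost with DESeq2's size factors, limma-voom and no filter, Mrpl28, Mrpl3 and Mrps7 with the replicate block, Mrpl3 and Mrps7 with no filter or the 6 libraries, and Mrps7 with limma-voom. The cause of these shifts was not tested.

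Leaving out 1 library gave, with cisplatin over control, 2 to 5 genes higher, 34 to 49 lower, a median of -0.55 to -0.40 and 6576 to 7979 of all genes called. YSJZD over cisplatin gave 11 to 24 higher, 1 to 2 lower, a median of 0.28 to 0.32 and 3496 to 4871 called. YSJZD over control gave 1 to 3 higher, 0 to 7 lower, a median of -0.25 to -0.07 and 1607 to 3138 called, with 1607 without control library 1 and 1699 without control library 2 against 2694 with all. Values that straddled 0 were Mrps25 (-0.08 to 0.11) and Mrpl35 (-0.17 to 0.02) with cisplatin, Mrps18a (-0.24 to 0.02), Mrps18b (-0.23 to 0.06) and Mrps18c (-0.04 to 0.16) in YSJZD over cisplatin, and Mrpl19 (-0.13 to 0.08), Mrpl34 (-0.21 to 0.10), Mrps30 (-0.13 to 0.09) and Mrps12 (-0.23 to 0.06) in YSJZD over control; none of them was called there.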
